A study of Monodelphis domestica with 2 samples.

Results

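The genes described here belong to the developmental transcription factor families of the SOX, POU, LHX, DLX, MEIS, PBX, NKX, ONECUT, ZEB, NFI, FOX, NEUROD, OLIG, TBX, ZIC, BCL11, PROX, SIX3-related and PAX names, with CUX1. Members were taken by symbol, ignoring case, and DLX1, LHX6, FOXP1, FOXO1 and NEUROD6 were not counted among them. The rule used no measured value and gave 117 members among 30800 genes, 11590 of which carried a symbol. Their RNA was measured in nuclei of the primary visual cortex (V1) of 2 adult male gray short-tailed opossums (Monodelphis domestica), a laboratory marsupial, aged 1.5 years (animal 1) and 2 years (animal 2). No treatment, transgene or mutation was named for either animal, and they formed 1 group. Sorted nuclei of each animal were loaded as 2 libraries (1A and 1B, 2A and 2B) of the same suspension, which counted as 1 replicate. The tissue of the animals was prepared by different people, so that animal, age and handling cannot be told apart.

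Transcription factors of these families bind DNA through homeodomain, HMG-box, forkhead, paired, T-box, zinc-finger or basic helix-loop-helix domains, and act in combinations that divide the embryonic nervous system into territories and lineages. In the telencephalon, dorsal progenitors that express PAX6 and LHX2 give rise to glutamatergic projection neurons, whereas ventral progenitors of the ganglionic eminences use DLX and NKX factors and give rise to GABAergic interneurons. Many of the factors stay on in mature cells, where they hold the identity of a neuron or glial class.

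Libraries held 55625042 to 69706055 UMIs (unique molecular identifiers, each standing for 1 captured RNA molecule), and the deposited annotation placed 32764 nuclei in 18 subclasses. Members took 0.671% to 0.734% of the UMIs of labelled nuclei in a library. Levels are given as CPM, the UMIs of a gene per 1000000 UMIs of the summed nuclei of a subclass in 1 animal, with animal 1 named before animal 2. Reads were counted near the 3′ end of genes, so levels of different genes are not compared. Median depth per nucleus was lowest in endothelial nuclei (1415 and 1402 UMIs) and highest in L5PT in animal 1 (10712) and L6b in animal 2 (8763). The smallest subclasses in both animals were endothelial with 29 and 36 nuclei and L6b with 56 and 53, and IT_D had 58 nuclei in animal 1 and 315 in animal 2. Of 31 marker genes of the subclasses, 25 were highest in the subclass they mark in both animals, and FREM1, TLE4, FEZF2, TSHZ2, HTR2C and CCN2 were highest elsewhere. The markers of Frem1, L5NP and L6b that were measured thus did not peak in their own subclass. For L5PT, FEZF2 was highest in L5NP (41.0 and 53.3 CPM), and only POU3F1, itself a member, peaked in L5PT. No marker of Pvalb was among the 31, so that label was checked only by GABAergic markers and by SST, at 20.3 and 21.5 CPM in Pvalb and 350.3 and 291 in Sst. Pairs of libraries shared 13 to 26 nuclear barcodes, at most 0.328% of the smaller library.

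Of the 117 members, 43 reached 20 CPM in at least 1 subclass of each animal, not always the same subclass. Of all 30800 genes, 10412 did so. In the mean of the animals, 58 members stayed under 5 CPM in every subclass, and 7 had no UMI in any labelled nucleus. A further 20 had 1 to 9 UMIs in all. The low-count filter passed 58 members to the tests, and since a gene can pass through the subclass where it is high, counts over these 58 do not stand for all 117. Of 262 calls of members in the 11 comparisons below, 21 were of genes that passed the filter only through the side on which they were higher. These 21 stay in the counts, but the genes are described there by their levels, with no test. The families differed in how many members reached 20 CPM. All 4 PBX, all 4 NFI and both BCL11, MEIS and ZEB genes did so, and 8 of 12 SOX, 8 of 25 FOX and 4 of 13 POU genes. Only 1 of 11 NKX genes (NKX2-2) did, and none of 10 TBX, 7 PAX and 6 SIX3-related genes. PBX2 was counted although it was at 11.3 and 23.9 CPM in microglia, since its highest subclass differed between the animals.

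Among the 43 members at 20 CPM, 31 (72.1%) had their highest level in the same subclass in both animals, against 62.9% of the 10412 genes that reached this level. They were spread over 15 of the 18 subclasses. Endothelial nuclei held 5 of them (SOX7, SOX13, FOXF2, ZEB1 and ZIC2). Their sums were small (48514 and 57864 UMIs), and FOXF2 reached 20.6 CPM in animal 1 with 1 UMI. More genes were at 20 CPM in either animal there (9307) than in microglia (7278), the next subclass. Astrocytes held 4 (SOX9, LHX2, MEIS2 and POU3F3), and oligodendrocyte precursor cells (OPC) also 4 (SOX6, SOX8, NKX2-2 and FOXO3). On the tau index, which runs from 0 for equal log2 levels in all subclasses to 1 for a gene found in 1 subclass, the median was 0.315 for these members and 0.250 for all genes at that level. A core of 14 members reached 20 CPM in all 18 subclasses of both animals, and 13 members did so in only 1 to 3 subclasses.

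**Figure D1:**
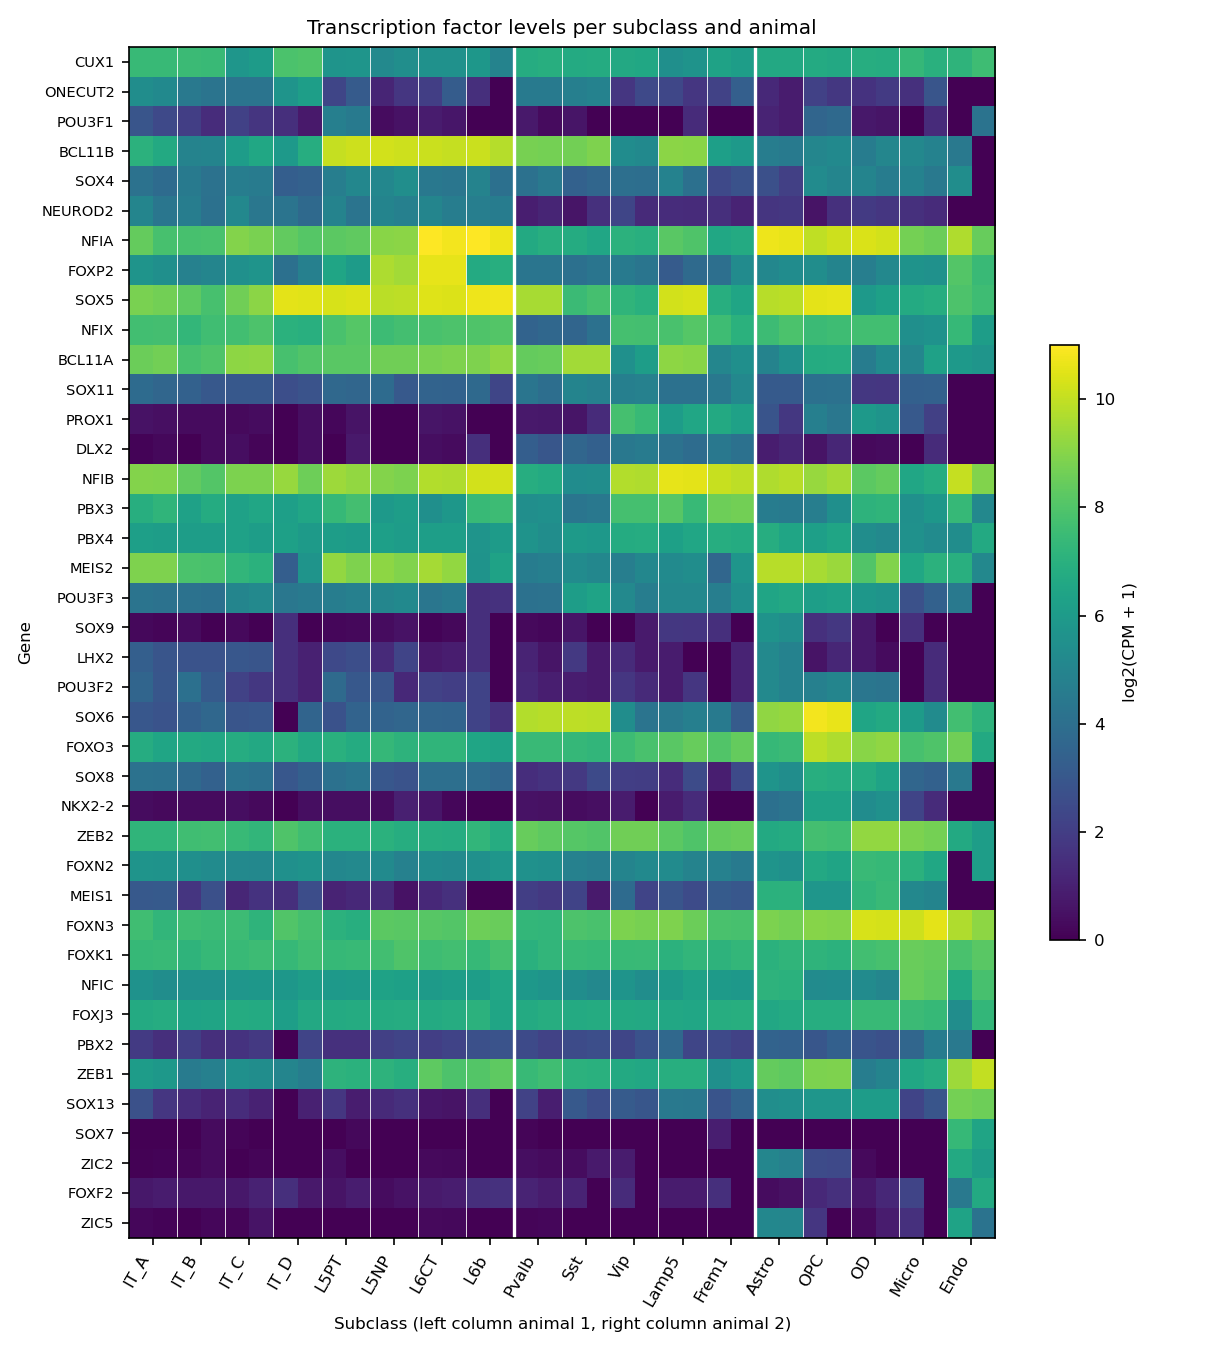
Level of 40 of the 43 members that reached 20 CPM, as log2(CPM + 1) by colour, with genes as rows and the 18 subclasses as columns, the left column of each pair for animal 1 and the right for animal 2. White lines divide glutamatergic, GABAergic and non-neuronal subclasses. Blocks of high values follow subclasses in both animals, such as PROX1 in Vip (215 and 169 CPM) and SOX7 in endothelial nuclei (165 and 86.4 CPM).

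A level of 20 CPM in at least 1 subclass of each animal was reached by 43 of all 117 members and 10412 of all 30800 genes. Factors that pattern territories outside the dorsal telencephalon were low for the most part. Of 34 such members, which include FOXA, TBX, PAX, POU4 and several NKX genes and SIX2, 33 stayed below 20 CPM in the mean of the animals, 28 of these below 5 CPM and 21 below 1 CPM, and 5 had no UMI. The exception was ONECUT2, a cut-homeodomain factor known from liver, retina and motor neurons, which was measured in IT neurons and in Pvalb and Sst interneurons and is described with them. ONECUT1 was at 14.2 and 7.47 CPM in OPC, its highest labelled subclass. NKX2-1, which specifies medial ganglionic eminence progenitors in the embryo and is switched off in most cortical interneurons before birth, had 5 UMIs in all labelled nuclei and at most 0.380 CPM in a subclass of an animal. SIX3, a factor of the ventral forebrain and eye, had 10 UMIs. NEUROD1, which acts early in neurogenesis, was at most 2.60 CPM (mean of the animals, in IT_B). The ciliary factor FOXJ1 stayed at or below 0.792 CPM in the mean. Summed markers of ependymal cells and choroid plexus, the ciliated cells of the ventricles, were at most 58.5 and 55.8 CPM, in microglia. DNAH11 alone gave these values, and TTR, the other marker measured, was at most 0.790 and 1.24 CPM in any subclass.

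The comparison of the 5 GABAergic with the 8 glutamatergic subclasses asks which members keep the division between the ventral and the dorsal telencephalon in the adult. PROX1, SOX6 and ZEB2 were higher in GABAergic nuclei, and MEIS2, FOXP2 and NFIA in glutamatergic nuclei. DLX2 and NEUROD2, which passed the filter only through their GABAergic or their glutamatergic sums, are given as levels. Of the 58 members tested, edgeR called 34 (58.6%), with 13 higher and 21 lower in GABAergic than in glutamatergic nuclei, while 39.9% of all genes tested were called (19.4% higher and 20.5% lower). Their median log2 fold change was -0.30, against 0.01 over all genes tested. Among 54 tested transcription factors of other families, 24 were higher and 16 lower. Here and below the fitted fold change averages the log2 levels of subclasses with equal weight, and the CPM of a group of subclasses is their mean. Of the 6 tested members of an interneuron list, PROX1, SOX6 and ZEB2 were higher in GABAergic subclasses and NFIB and NFIX were lower, and DLX2 is given below as levels. Subclass labels rest on clusters of the same expression values, members included. With labels predicted from all other genes, edgeR called 34 of 57 members tested, 33 of them shared.

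DLX2, a homeodomain factor that specifies GABAergic fate in ventral progenitors, was at 15.6 and 13.9 CPM in GABAergic and 0.320 and 0.228 CPM in glutamatergic subclasses. All 5 interneuron subclasses (6.64 to 23.0 CPM) lay above all 8 glutamatergic ones (0 to 1.82 CPM). ZEB2, a zinc-finger repressor needed for interneuron migration, was at 329 and 314 CPM against 162 and 147 CPM (log2 fold change 0.99, SE 0.05, adjusted p = 6.49e-17 by edgeR), and the lowest interneuron value (Lamp5 in animal 2) was level with the highest glutamatergic one (IT_D in animal 1), both at 252 CPM. PROX1 and SOX6, which mark separate interneuron origins, were high in some interneuron subclasses only and are given below. With at most 100 nuclei per animal and subclass, drawn at random in 2 draws, PROX1 was not called between GABAergic and glutamatergic subclasses in the first draw (5.76 on the log2 scale) and was called in the second (5.82).

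NEUROD2, a basic helix-loop-helix factor of excitatory neurons, was the reverse of DLX2, at 1.76 and 1.45 CPM in GABAergic and 27.8 and 20.01 CPM in glutamatergic subclasses. Its level in glutamatergic subclasses ran from 12.5 to 34.3 CPM, and in each subclass was lower in animal 2. MEIS2, a TALE homeodomain partner of PBX and HOX proteins, was at 27.3 and 37.3 CPM in GABAergic and 350.0 and 313 CPM in glutamatergic subclasses (log2 fold change -2.95, SE 0.16, adjusted p = 2.82e-15 by edgeR). The ranges met, since IT_D in animal 1 had 8.80 CPM, below every interneuron subclass, and L6b had 49.0 and 81.3 CPM. NFIA, a nuclear factor I protein known for the switch to gliogenesis, was at 146 and 138 against 787 and 692 CPM (log2 fold change -2.08, SE 0.07, adjusted p = 8.84e-20 by edgeR). Astrocytes held 1707 and 1611 CPM of NFIA, and summed markers of astrocytes were at 78.0 to 210.0 CPM in GABAergic and 85.5 to 730 CPM in glutamatergic subclasses, against 19691 and 18748 CPM in astrocytes. Their part in the results on NFIA was not tested. FOXP2 was also lower in GABAergic subclasses (log2 fold change -2.68, SE 0.11, adjusted p = 3.14e-18 by edgeR). Of the 15 tested members of a projection neuron list, 11 were lower in GABAergic subclasses with NEUROD2 counted, 2 were higher (SOX11 and POU3F3) and 2 were not called (CUX1 and POU3F1).

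SOX11, a SOXC factor of maturing neurons, was at 22.3 and 24.1 CPM in GABAergic and 10.5 and 8.14 CPM in glutamatergic subclasses (log2 fold change 1.19, SE 0.11, adjusted p = 6.84e-10 by edgeR). POU3F3, a POU factor of upper-layer neurons, had 36.0 and 40.4 against 20.3 and 21.9 CPM (log2 fold change 0.89, SE 0.11, adjusted p = 1.05e-07 by edgeR), and its higher mean among interneurons came with 68.8 and 82.6 CPM in Sst. FOXO3, a forkhead protein regulated by insulin signalling and stress, was at 214 and 248 against 122 and 107 CPM (log2 fold change 0.89, SE 0.07, adjusted p = 8.92e-12 by edgeR). NFIB and NFIX were lower in GABAergic subclasses by the fit, but their values divided the interneurons, which the next comparison shows.

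The comparison of Pvalb and Sst with Vip, Lamp5 and Frem1 sets interneurons of the medial ganglionic eminence (MGE) against those of the caudal ganglionic eminence (CGE), by the origin these subclasses have in other mammals. SOX6, BCL11A, BCL11B and ONECUT2 were higher on the MGE side, and PROX1, NFIB, NFIX and PBX3 on the CGE side. EdgeR called 21 of 58 tested members (36.2%), 8 of them higher and 13 lower in MGE than in CGE interneurons, beside 22.3% of all genes tested (13.2% higher and 9.13% lower). On the log2 scale the median fold change was 0.09 over the members and 0.06 over all genes tested. Of 54 factors of other families tested, 13 were higher and 11 lower. Within the interneuron list, SOX6 was higher in MGE subclasses, PROX1, NFIB, NFIX and DLX2 were lower, and ZEB2 was not called (310.3 and 285 against 341 and 333 CPM).

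SOX6 (Ensembl ENSMODG00000007224), an HMG-box factor needed for the placement and maturation of MGE interneurons, was at 848 and 907 CPM in Pvalb and 958 and 944 CPM in Sst. In Vip it was at 41.1 and 17.8 CPM, in Lamp5 at 20.998 and 26.4 and in Frem1 at 21.4 and 8.07, and Frem1 of animal 2 lay within the glutamatergic range of 0 to 11.7 CPM. The MGE and CGE subclasses did not overlap in either animal (log2 fold change 5.42, SE 0.18, adjusted p = 1.50e-19 by edgeR). PROX1 (Ensembl ENSMODG00000003211), a homeodomain factor of CGE interneurons, was its mirror image, at 215 and 169 CPM in Vip, 101 and 77.2 in Frem1 and 67.8 and 90.7 in Lamp5. Pvalb had 0.682 and 0.651 CPM and Sst 0.564 and 1.52 CPM, which lay far below the CGE subclasses (log2 fold change -7.02, SE 0.24, adjusted p = 5.63e-18 by edgeR).

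Counted by nuclei, at least 1 PROX1 UMI was found in 60.7% and 47.0% of Vip nuclei, 33.9% and 38.6% of Lamp5 and 40.4% and 30.9% of Frem1 nuclei of the animals. In Pvalb nuclei, an MGE subclass that should lack the gene, the shares were 0.519% and 0.506%, although their median depth was greater (7195 and 6987 UMIs, against 4909 and 4682 in Vip). With every nucleus thinned to 1000 UMIs, which left out 1 shallower Vip nucleus in each animal and 2 and 1 Pvalb nuclei, the PROX1 shares were 19.1% and 15.2% in Vip and 0.173% and 0% in Pvalb. The CGE subclasses stood above the share in Pvalb at either depth.

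NFIB and NFIX, nuclear factor I proteins that act in neuronal and glial maturation, divided the interneurons the other way from SOX6. NFIB was at 116 and 105 CPM in Pvalb and 39.7 and 41.1 in Sst, and at 826 to 1540.1 CPM over the CGE subclasses (log2 fold change -3.99, SE 0.13, adjusted p = 8.35e-20 by edgeR). NFIX was at 10.5 and 12.0 CPM in Pvalb and 10.99 and 16.4 in Sst, against 130.2 to 272 CPM (log2 fold change -4.02, SE 0.15, adjusted p = 1.31e-18 by edgeR). For both genes the MGE subclasses were the low exception, since glutamatergic subclasses held 267 to 1263 CPM of NFIB and 121 to 274 CPM of NFIX. PBX3, a TALE homeodomain protein, was at 30.7 and 32.7 CPM in MGE and 294 and 262 CPM in CGE subclasses (log2 fold change -3.15, SE 0.17, adjusted p = 4.72e-15 by edgeR). PBX4 was lower in MGE subclasses by less (log2 fold change -0.89, SE 0.10, adjusted p = 1.93e-08 by edgeR).

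The zinc-finger proteins BCL11A and BCL11B, known from corticospinal neuron development, were higher in MGE subclasses by the fit (log2 fold changes 2.29 ± 0.14 and 2.00 ± 0.13, edgeR adjusted p = 1.49e-13 and 5.23e-13). The subclass values did not follow the origin, however. BCL11A was at 559 and 527 CPM in Lamp5, between Pvalb (340.1 and 352) and Sst (705 and 722), and at 45.0 and 68.3 in Vip and 32.1 and 43.8 in Frem1. BCL11B was at 552 and 531 CPM in Lamp5, above Pvalb (436 and 418) and Sst (406 and 469.9) in both animals, and at 39.5 and 36.4 in Vip. SOX5, a SOXD factor of deep-layer projection neurons, divided them in another way, with 1218 and 1311 CPM in Lamp5 and 749 and 763 in Pvalb against 180.4 and 218 in Sst, 145 and 128 in Vip and 118 and 88.7 in Frem1. ONECUT2 was at 22.5 and 21.6 CPM in Pvalb and 26.2 and 28.5 in Sst, and at 2.33 to 9.22 CPM in the CGE subclasses (log2 fold change 2.64, SE 0.31, adjusted p = 1.23e-07 by edgeR). ZEB1 and CUX1 were also higher in MGE subclasses, with log2 fold changes of 0.92 ± 0.10 and 0.72 ± 0.10 (edgeR adjusted p = 3.54e-08 and 1.29e-06).

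**Figure D2:**
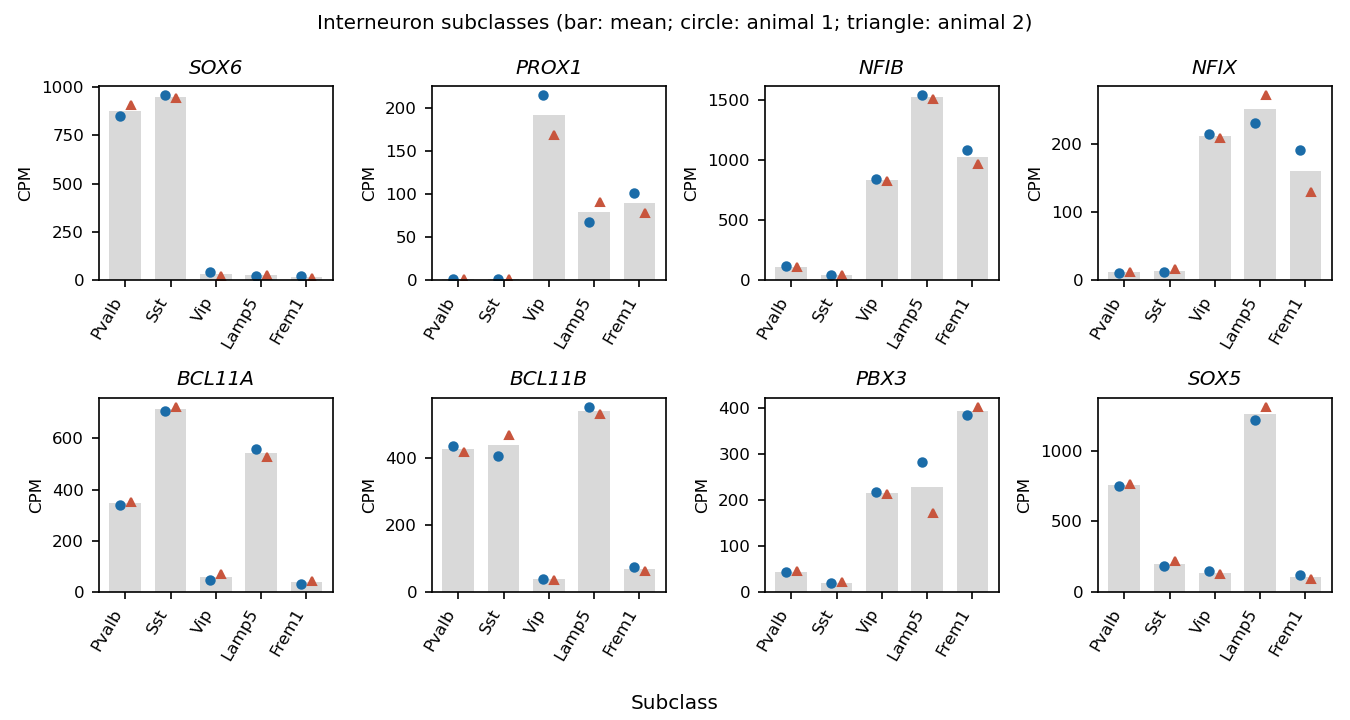
CPM of 8 members in the 5 interneuron subclasses, with the bar at the mean of the animals and a symbol for each animal. SOX6 is high in Pvalb and Sst (848 to 958 CPM), PROX1, NFIB and NFIX are high in Vip, Lamp5 and Frem1, and BCL11A, BCL11B and SOX5 set Lamp5 apart from Vip and Frem1.

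Pvalb interneurons held more SOX5, NFIB and PBX3 than Sst interneurons, and less POU3F3 and BCL11A. Calls by edgeR took in 15 of 58 tested members (25.9%), with 8 higher and 7 lower in Pvalb than in Sst, and 16.2% of all genes tested (7.98% higher and 8.19% lower). Median log2 fold changes were 0.03 over the members and 0.01 over all genes tested. For comparison, 54 factors of other families were tested, and 3 were higher and 18 lower. POU3F3 was at 16.0 and 16.8 CPM in Pvalb and 68.8 and 82.6 in Sst (log2 fold change -2.19, SE 0.18, adjusted p = 2.26e-10 by edgeR). SOX5 was at 749 and 763 against 180.4 and 218 CPM (log2 fold change 1.94, SE 0.16, adjusted p = 1.33e-10 by edgeR), and NFIB at 116 and 105 against 39.7 and 41.1 CPM (log2 fold change 1.47, SE 0.18, adjusted p = 4.66e-07 by edgeR). In Pvalb, NFIB was high in 1 type, Pvalb_5 (998 and 822 CPM in 110 and 99 nuclei), and the other 5 types lay at 24.2 to 57.5 CPM, a range that holds the Sst values. BCL11A was lower in Pvalb (log2 fold change -1.03 ± 0.19, edgeR adjusted p = 2.31e-04), as was FOXN3 (-0.61 ± 0.14, edgeR adjusted p = 0.00145), and PBX3 (1.18 ± 0.26) and FOXN2 (0.78 ± 0.18) were higher (edgeR adjusted p = 0.00134 and 0.00159). The animals did not overlap between Pvalb and Sst for any of these 7 genes. SOX6 (log2 fold change -0.10, SE 0.21, adjusted p = 0.841 by edgeR) and BCL11B (log2 fold change -0.02, SE 0.18, adjusted p = 0.974 by edgeR) were not called. Smaller differences lost their call without single libraries. NFIC was no longer called without library 1A (0.58) or 2B (0.44), ZEB1 without 1B (0.40), SOX11 without 1A (-0.66), and PBX4 without 1B (-0.37), 2A (-0.42) or 2B (-0.44), all on the log2 scale. PBX4 was also not called with no low-count filter (-0.40) or without nuclei called doublets (-0.41). With at most 100 nuclei per animal and subclass, FOXN2 (0.97 and 0.41), NFIC (0.21 and 0.29), ZEB1 (0.34 and 0.31) and SOX11 (-0.46 and -1.15) were called in neither random draw, and FOXN3 (-0.54), PBX3 (0.86) and PBX4 (-0.36) not in the first.

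Intratelencephalic (IT) neurons send their axons to other parts of the cortex, and their 4 subclasses were compared with the L5PT, L5NP, L6CT and L6b subclasses, the deep-layer neurons named for pyramidal tract, near-projecting, corticothalamic and layer 6b cells. BCL11B, FOXP2, ZEB1, NFIA and SOX5 were lower in IT neurons, and ONECUT2 and CUX1 were higher. By edgeR, 12 members were higher and 14 lower in IT than in the other glutamatergic subclasses, or 26 of 58 tested (44.8%), against 24.4% of all genes tested (13.4% higher and 11.0% lower). The median log2 fold change was 0.03 over the members and 0.03 over all genes tested. Among 54 tested transcription factors of other families, 15 were higher and 9 lower. Of the 15 tested members of the projection neuron list, 6 were lower in IT subclasses (BCL11B, FOXP2, NFIA, SOX5, NFIB and SOX4), 4 were higher, CUX1, LHX2 and POU3F3 among them, and 5 were not called.

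BCL11B, which directs axons out of the cortex, was at 1044 and 1144 CPM in L5PT, 1209 and 1137 in L5NP, 1121 and 1044 in L6CT and 1135 and 887 in L6b. The 4 IT subclasses held 29.6 to 133 CPM, far below each of them (log2 fold change -3.81, SE 0.10, adjusted p = 5.00e-21 by edgeR). FOXP2, a forkhead factor of corticothalamic neurons, was not spread evenly over the deep subclasses. It stood at 1554 and 1539 CPM in L6CT and 802 and 719.9 in L5NP, and at 105 and 117 in L6b and 87.6 and 64.0 in L5PT, with 15.8 to 50.9 CPM in IT subclasses (log2 fold change -3.03, SE 0.11, adjusted p = 1.21e-18 by edgeR). The steps from L6CT to L5NP and from L5NP to L6b were larger than the difference between animals.

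SOX5, which controls the timing of deep-layer neuron production, was at 1712 and 1729 CPM in L6b, 1438 and 1368 in L6CT, 1297 and 1393 in L5PT and 941 and 952 in L5NP (log2 fold change -1.23, SE 0.08, adjusted p = 1.06e-13 by edgeR). IT_D, at 1522 and 1447 CPM, lay among the deep subclasses, whereas IT_A, IT_B and IT_C held 220.3 to 545 CPM. NFIA was at 2063 and 1801 CPM in L6CT and 2003 and 1696 in L6b, and every other glutamatergic subclass was at 221 to 555 CPM (log2 fold change -1.42, SE 0.08, adjusted p = 2.64e-14 by edgeR). ZEB1, an E-box binding repressor, was at 119 to 307 CPM in deep and 23.2 to 66.0 CPM in IT subclasses, with no overlap (log2 fold change -2.30, SE 0.08, adjusted p = 6.38e-19 by edgeR). MEIS2 was lower in IT subclasses by the fit (log2 fold change -0.97, SE 0.17, adjusted p = 7.19e-05 by edgeR), but L6b (49.0 and 81.3 CPM) lay with IT_D (8.80 and 50.8 CPM) at the low end.

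CUX1, a cut-homeodomain factor of upper-layer neurons, was higher in IT subclasses (log2 fold change 1.79, SE 0.08, adjusted p = 7.35e-17 by edgeR), at 238 and 254 CPM in IT_D, 182 and 175 in IT_B and 169 and 169 in IT_A. IT_C, at 53.6 and 64.3 CPM, met the deep range of 29.8 to 56.3 CPM. ONECUT2 was at 51.0 and 70.2 CPM in IT_D, 41.2 and 36.6 in IT_A, 20.7 and 17.8 in IT_B and 17.9 and 17.9 in IT_C, above the deep range of 0 to 8.12 CPM in every case (log2 fold change 3.59, SE 0.25, adjusted p = 2.36e-12 by edgeR). ZEB2 was also higher in IT subclasses (log2 fold change 0.63 ± 0.06, edgeR adjusted p = 1.13e-09). NEUROD2 was not called (log2 fold change -0.22, SE 0.16, adjusted p = 0.367 by edgeR). The call of POU3F3 (log2 fold change 0.74) was lost without library 1B (0.60) and with at most 100 nuclei per animal and subclass in the first draw (0.61), and its direction turned without the subclasses under 100 nuclei (-0.24), and L6b held 1.82 and 1.98 CPM. That of FOXN2 (0.27) was lost without library 2A (0.24) and with at most 100 nuclei in the second draw (0.06).

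**Figure D3:**
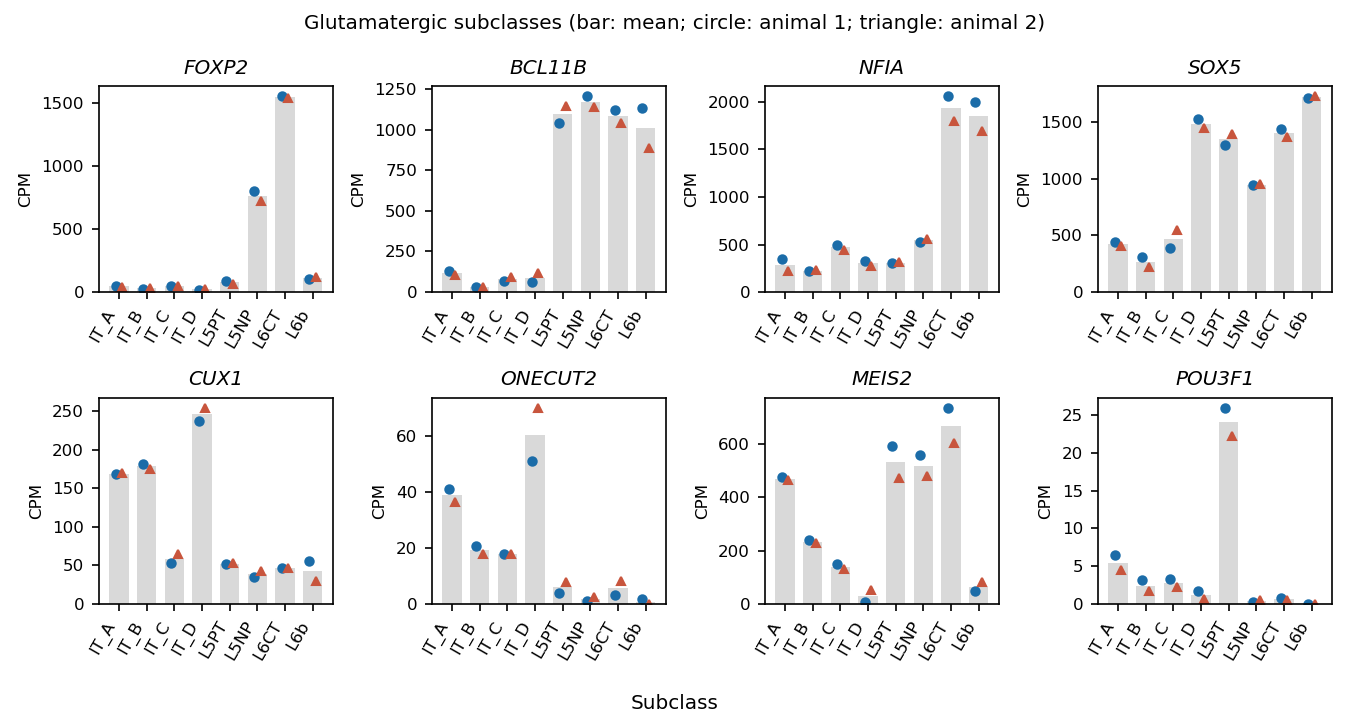
CPM of 8 members in the 8 glutamatergic subclasses, with the bar at the mean of the animals and a symbol for each animal. FOXP2 peaks in L6CT and L5NP, BCL11B is high in all 4 deep subclasses, NFIA in L6CT and L6b, POU3F1 in L5PT (26.0 and 22.2 CPM), and ONECUT2 and CUX1 are highest in IT_D.

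L5PT neurons, which project to the brainstem and spinal cord, held more POU3F1 and PBX3 than L6CT neurons, which project to the thalamus, and less FOXP2 and NFIA. Of the 58 members tested, edgeR called 12 (20.7%), with 6 higher and 6 lower in L5PT than in L6CT, while 15.2% of all genes tested were called (8.06% higher and 7.16% lower). On the log2 scale the median fold change was -0.10 over the members and -0.02 over all genes tested. Of 54 factors of other families tested, 4 were higher and 13 lower. With the animal as a block, edgeR called 17 members and 4051 of all genes, against 2621 without it. POU3F1, a POU factor known from layer 5 pyramidal tract neurons and Schwann cells, was at 26.0 and 22.2 CPM in L5PT (164 and 129 UMIs) and 0.804 and 0.576 CPM in L6CT (log2 fold change 5.14, SE 0.41, adjusted p = 3.56e-10 by edgeR). Among the neuronal subclasses IT_A followed at 6.43 and 4.46 CPM, and no other neuronal subclass passed 3.34 CPM in an animal. POU3F1 was also the only marker used here to check L5PT that peaked there, since FEZF2 was highest in L5NP. Its level in L5PT thus describes the subclass and is no separate check of the label. FOXP2 (87.6 and 64.0 against 1554 and 1539 CPM) and NFIA (304 and 315 against 2063 and 1801 CPM) were lower in L5PT, with log2 fold changes of -4.30 ± 0.20 and -2.59 ± 0.17 (edgeR adjusted p = 3.10e-15 and 1.32e-12). Astrocyte markers summed to 85.5 and 117 CPM in L5PT and 468 and 553 in L6CT, and their part in the difference of NFIA was not tested. PBX3 was higher in L5PT, at 163 and 208 against 44.0 and 55.5 CPM (log2 fold change 1.95, SE 0.21, adjusted p = 3.89e-08 by edgeR).

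ZEB1 and FOXN3 were lower in L5PT than in L6CT, with log2 fold changes of -0.96 ± 0.14 and -1.08 ± 0.14 (edgeR adjusted p = 5.36e-06 and 4.00e-07). BCL11B was called in neither direction, with 1044 and 1144 CPM in L5PT and 1121 and 1044 in L6CT (log2 fold change 0.07, SE 0.18, adjusted p = 0.887 by edgeR), and the animals overlapped. SOX5 was not called either (log2 fold change -0.00, SE 0.15, adjusted p = 0.996 by edgeR). BCL11A (-0.57) and SOX4 (0.65) passed the test narrowly. BCL11A was not called without library 1B (-0.55) or with labels predicted without the members (-0.59), and SOX4 not without 1A (0.54), 2A (0.64) or 2B (0.60). Capped at 100 nuclei per animal and subclass, SOX4 was called in neither draw (0.52 and 1.09) and BCL11A not in the second (-0.57).

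IT_A and IT_C are IT subclasses that the study also set against each other. MEIS2, CUX1 and ONECUT2 were higher in IT_A, and POU3F3 and NFIA in IT_C. EdgeR called 15 of 58 tested members (25.9%), 11 of them higher and 4 lower in IT_A than in IT_C, beside 13.4% of all genes tested (7.42% higher and 5.98% lower). Median log2 fold changes were 0.02 over the members and 0.01 over all genes tested. For comparison, 54 factors of other families were tested, and 7 were higher and 9 lower. With the animal as a block edgeR called 20 members and 4134 of all genes, against 2309 without it. MEIS2 was at 474 and 464 CPM in IT_A and 149.6 and 129.5 in IT_C (log2 fold change 1.80, SE 0.29, adjusted p = 4.28e-05 by edgeR). IT_B lay between them at 238 and 229 CPM, and IT_D was lowest at 8.80 and 50.8. CUX1 was at 169 and 169 against 53.6 and 64.3 CPM (log2 fold change 1.56, SE 0.14, adjusted p = 7.45e-10 by edgeR), with IT_B close to IT_A. ONECUT2 (log2 fold change 1.17, SE 0.27, adjusted p = 0.0032 by edgeR), PBX3 (log2 fold change 0.70, SE 0.21, adjusted p = 0.0194 by edgeR) and ZEB1 (log2 fold change 0.56, SE 0.14, adjusted p = 0.00675 by edgeR) were also higher in IT_A. With at most 100 nuclei per animal and subclass, PBX3 (0.51 and 0.47) and ZEB1 (0.74 and 0.19) lost their calls in both draws, ONECUT2 (0.81) and NFIA (-0.62) in the first, and POU3F3 (-1.03) in the second.

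NFIA was lower in IT_A, at 344 and 223 against 499 and 444 CPM (log2 fold change -0.70, SE 0.16, adjusted p = 0.00216 by edgeR), as was POU3F3, at 18.1 and 16.5 against 31.1 and 34.8 CPM (log2 fold change -0.89, SE 0.16, adjusted p = 2.17e-04 by edgeR). For both genes the animals of IT_A lay below those of IT_C. Both were high in astrocytes (1707 and 1611 CPM for NFIA and 88.1 and 99.6 for POU3F3). Astrocyte markers summed to 139 and 164 CPM in IT_A and 496 and 684 in IT_C, and their part in these results was not tested. Of the deep-layer factors, SOX5 (log2 fold change -0.11, SE 0.15, adjusted p = 0.802 by edgeR) and FOXP2 (log2 fold change 0.01, SE 0.18, adjusted p = 0.99 by edgeR) were not called between IT_A and IT_C. BCL11B (0.59) was called in the whole data but not without library 1B (0.54), with predicted labels (0.48) or with at most 100 nuclei per animal and subclass (0.84 and 0.40 in the draws). Of the IT_A types only IT_A_4 lay above IT_C in both animals, at 439 and 426 against 66.3 and 93.9 CPM, and the other 4 lay at 29.9 to 68.2 CPM.

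The comparison of neuroglia (astrocytes, OPC and oligodendrocytes) with the 13 neuronal subclasses had the most calls of the comparisons made. MEIS1, SOX6, SOX13 and SOX8 were higher in neuroglia, and BCL11A and BCL11B in neurons. Calls by edgeR took in 40 of 58 tested members (69.0%), with 27 higher and 13 lower in neuroglia than in neurons, and 62.2% of all genes tested (31.9% higher and 30.3% lower). The median log2 fold change was 0.27 over the members and -0.00 over all genes tested. Among 54 tested transcription factors of other families, 24 were higher and 18 lower. Neuroglial nuclei were also shallower, with median depths of 1924 and 1909 UMIs in oligodendrocytes and 2522 and 2781 in astrocytes, and the part of depth in these results was not tested. NKX2-2, a homeodomain factor of the oligodendrocyte lineage, was at 45.3 and 48.3 CPM in neuroglia and 0.339 and 0.364 CPM in neurons, with no test, since it passed the filter through its neuroglial sums. MEIS1, a TALE homeodomain protein, was at 112 and 121 against 3.95 and 3.27 CPM (log2 fold change 5.57, SE 0.15, adjusted p = 4.75e-22 by edgeR), with 153 and 175 CPM in oligodendrocytes, 129.8 and 132 in astrocytes and 53.6 and 54.7 in OPC, each above the neuronal range of 0 to 13.4 CPM. Its paralog MEIS2 was at 259 to 908 CPM in neuroglia, a range that overlapped those of several glutamatergic subclasses (log2 fold change 2.54, SE 0.12, adjusted p = 6.67e-17 by edgeR).

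Of the SOX factors, SOX13 was at 54.4 and 55.3 CPM in neuroglia and 4.70 and 4.03 in neurons (log2 fold change 4.41, SE 0.16, adjusted p = 3.43e-20 by edgeR), SOX8, a SOXE factor of glia, at 92.9 and 78.6 against 8.94 and 9.36 CPM (log2 fold change 3.51, SE 0.10, adjusted p = 1.04e-22 by edgeR), and SOX6 at 822 and 777 against 149.5 and 152 CPM (log2 fold change 4.49, SE 0.10, adjusted p = 8.84e-25 by edgeR). SOX6 was found in MGE interneurons and in astrocytes and OPC, while oligodendrocytes (86.8 and 103 CPM) and the other neurons held less. POU3F2 was at 27.1 and 26.2 against 4.93 and 2.80 CPM (log2 fold change 3.36, SE 0.20, adjusted p = 1.06e-14 by edgeR). BCL11B (log2 fold change -3.12, SE 0.12, adjusted p = 8.77e-20 by edgeR) and BCL11A (log2 fold change -2.55, SE 0.12, adjusted p = 9.82e-18 by edgeR) were lower in neuroglia, with BCL11B at 21.9 to 36.1 CPM there. PBX3 (-1.11 ± 0.12) and FOXP2 (-0.67 ± 0.11) were lower too, in log2 units with SE (edgeR adjusted p = 3.69e-09 and 6.39e-06).

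Within the oligodendrocyte lineage, OPC divide and give rise to the oligodendrocytes that form myelin. OPC held more SOX5, SOX6 and ZEB1, and oligodendrocytes more PBX3, MEIS1, ZEB2, FOXN3 and PROX1. By edgeR, 18 members were higher and 10 lower in OPC than in oligodendrocytes, or 28 of 58 tested (48.3%), against 38.0% of all genes tested (20.2% higher and 17.9% lower). On the log2 scale the median fold change was 0.40 over the members and -0.00 over all genes tested. Of 54 factors of other families tested, 25 were higher and 6 lower. Of the 7 tested members of an oligodendrocyte lineage list, SOX5, SOX6, SOX11 and NKX2-2 were higher in OPC, none was lower, and SOX4, SOX8 and OLIG2 were not called. SOX5 was at 1526 and 1547 CPM in OPC and 59.5 and 75.1 in oligodendrocytes (log2 fold change 4.34, SE 0.17, adjusted p = 1.11e-17 by edgeR), and SOX6 at 1801 and 1617 against 86.8 and 103 CPM (log2 fold change 4.00, SE 0.24, adjusted p = 2.74e-14 by edgeR). These SOXD factors are known to hold precursors back from differentiation, and for both the difference was larger than the spread of the animals. NKX2-2 was at 79.6 and 80.9 against 40.5 and 46.1 CPM (log2 fold change 0.72, SE 0.25, adjusted p = 0.0275 by edgeR). For SOX8 the values were 119 and 111 CPM in OPC and 109 and 83.2 in oligodendrocytes (log2 fold change 0.08, SE 0.18, adjusted p = 0.788 by edgeR).

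OLIG2, which specifies the lineage, was low at this depth, with 3.79 and 6.84 CPM in OPC (8 and 11 UMIs) and 2.05 and 1.57 CPM in oligodendrocytes (10 and 6 UMIs), and was not called between them (log2 fold change 1.33, SE 0.65, adjusted p = 0.126 by edgeR). ZEB1 was at 455 and 469.7 CPM in OPC and 24.3 and 30.1 in oligodendrocytes (log2 fold change 3.92, SE 0.17, adjusted p = 3.34e-17 by edgeR). ZEB2, which promotes myelination, went the other way, with 212 and 198 against 594 and 598 CPM (log2 fold change -1.71, SE 0.12, adjusted p = 4.23e-13 by edgeR). BCL11A was also higher in OPC (log2 fold change 1.67, SE 0.23, adjusted p = 7.53e-07 by edgeR). Higher in oligodendrocytes were FOXN3, at 1293 and 1272 against 517 and 504 CPM (log2 fold change -1.50, SE 0.14, adjusted p = 1.98e-10 by edgeR), MEIS1 (log2 fold change -1.78, SE 0.26, adjusted p = 1.91e-06 by edgeR), PBX3 (log2 fold change -2.26, SE 0.26, adjusted p = 1.78e-08 by edgeR), FOXN2 (log2 fold change -1.03, SE 0.16, adjusted p = 5.02e-06 by edgeR) and PROX1 (log2 fold change -1.43, SE 0.24, adjusted p = 2.52e-05 by edgeR). With at most 100 nuclei per animal and subclass, PROX1 was called in neither draw (-0.95 and -1.10), PBX3 not in the first (-1.07), and MEIS1 (-1.18) and FOXN2 (-0.55) not in the second. PROX1 was at 59.3 and 51.6 CPM in oligodendrocytes. It was found in 11.4% and 9.28% of oligodendrocyte nuclei, against 1.49% and 0.735% of astrocyte nuclei, whose median depth was greater, and in 6.14% and 5.77% against 0.550% and 0.123% after thinning.

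Astrocytes were compared with the oligodendrocyte lineage, the mean of OPC and oligodendrocytes. LHX2, ZIC2 and ZIC5 were higher in astrocytes, and PROX1, SOX4, FOXO3 and NKX2-2 in the lineage. Of the 58 members tested, edgeR called 33 (56.9%), with 19 higher and 14 lower in astrocytes than in the lineage, while 36.3% of all genes tested were called (19.1% higher and 17.2% lower). Median log2 fold changes were 0.04 over the members and -0.02 over all genes tested. For comparison, 54 factors of other families were tested, and 23 were higher and 8 lower. Of the 12 members of the astrocyte list 3 were too low to test, and SOX9 and PAX6 passed the filter by their astrocyte sums, so they are given with no test and the list with no count. SOX9, an HMG-box factor that starts gliogenesis and stays on in astrocytes, was at 48.8 and 42.9 CPM in astrocytes, 1.90 and 2.49 in OPC and 0.614 and 0 in oligodendrocytes. LHX2, a LIM-homeodomain selector of the dorsal telencephalon, was at 35.4 and 28.7 CPM against 0.262 to 1.24 CPM (log2 fold change 5.62, SE 0.42, adjusted p = 5.05e-12 by edgeR). The zinc-finger genes ZIC2 and ZIC5, known from the dorsal midline, were at 31.9 and 27.9 CPM (ZIC2) and 32.8 and 32.4 CPM (ZIC5) in astrocytes, with 18 and 9 UMIs in the whole lineage (log2 fold change 5.21, SE 0.47, adjusted p = 3.45e-09 by edgeR for ZIC2, and log2 fold change 5.29, SE 0.54, adjusted p = 4.88e-08 by edgeR for ZIC5). PAX6, a factor of radial glia, was at 18.3 and 14.98 CPM in astrocytes and 2.37 and 4.98 in OPC. NFIC was higher in astrocytes as well (log2 fold change 1.78, SE 0.13, adjusted p = 2.66e-12 by edgeR).

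Lower in astrocytes than in the oligodendrocyte lineage were PROX1 (6.27 and 2.43 against 42.7 and 35.7 CPM, log2 fold change -3.01, SE 0.28, adjusted p = 1.52e-09 by edgeR), SOX4 (5.42 and 3.24 against 34.4 and 27.3 CPM, log2 fold change -2.83, SE 0.29, adjusted p = 3.02e-09 by edgeR) and FOXO3 (164 and 181 against 750.0 and 703 CPM, log2 fold change -2.09, SE 0.16, adjusted p = 4.15e-12 by edgeR). NKX2-2 was lower (log2 fold change -1.87, SE 0.25, adjusted p = 8.41e-07 by edgeR, and not called at -1.46 in the second draw of at most 100 nuclei per animal and subclass) but stayed measurable in astrocytes, at 15.7 and 17.8 CPM (55 and 44 UMIs). ZEB2 (log2 fold change -1.79, SE 0.11, adjusted p = 3.85e-14 by edgeR) and PBX3 (log2 fold change -1.64, SE 0.25, adjusted p = 2.38e-06 by edgeR) were lower too. OLIG2 had no UMI in astrocytes, which put it at least 5.61-fold lower there than in the lineage, with a floor of 3 UMIs over the astrocytes of both animals. It passed the filter by its sums in the lineage, so this is a description.

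**Figure D4:**
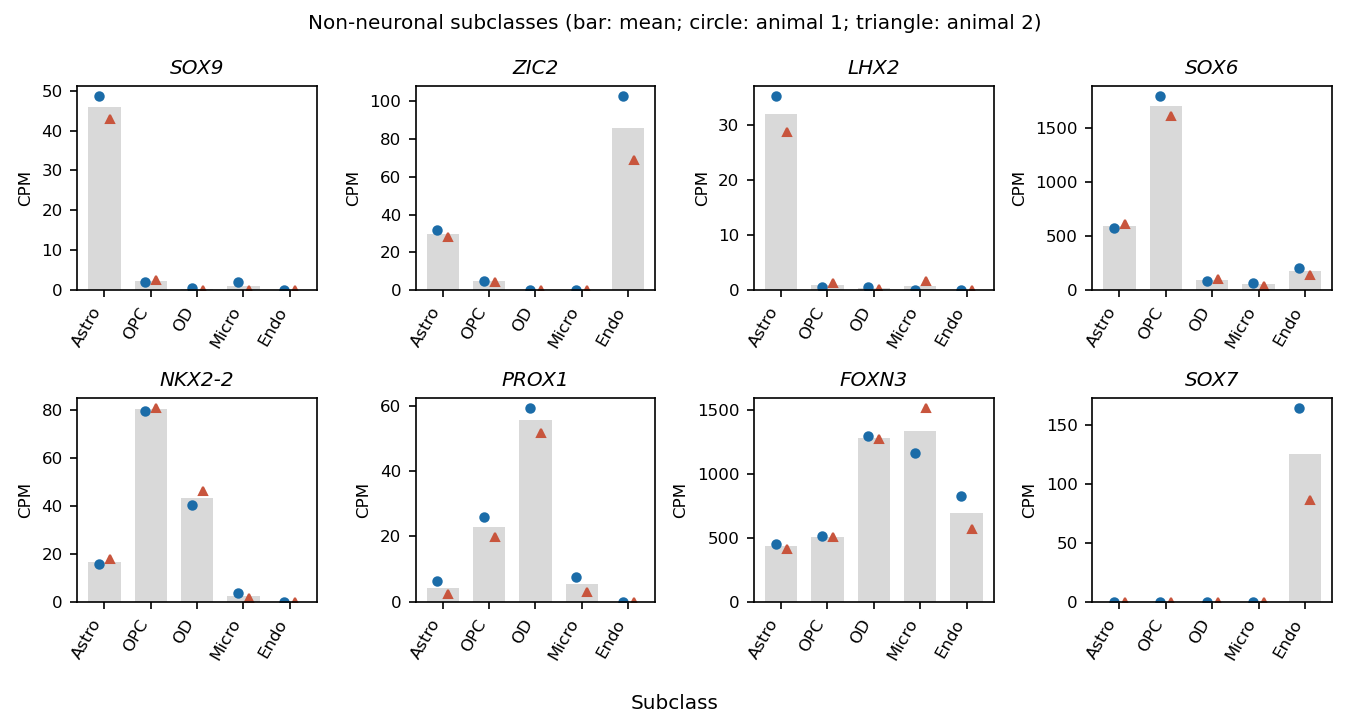
CPM of 8 members in the 5 non-neuronal subclasses, with the bar at the mean of the animals and a symbol for each animal. SOX9 and LHX2 are high in astrocytes, SOX6 and NKX2-2 in OPC, PROX1 in oligodendrocytes (59.3 and 51.6 CPM), FOXN3 in oligodendrocytes and microglia, and SOX7 in endothelial nuclei.

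In microglia, the resident macrophages of the brain, NFIC and ZEB2 were higher and NFIB, SOX6 and SOX13 lower than in the other non-neuronal subclasses. EdgeR called 19 (32.8%) of the 58 members tested against the mean of these, with 5 higher and 14 lower, while 23.8% of all genes tested were called (14.5% higher and 9.28% lower). The median log2 fold change was -0.38 over the members and 0.11 over all genes tested. Among 54 tested transcription factors of other families, 13 were higher and 8 lower. NFIC was at 347 and 308 CPM in microglia and 31.9 to 138 CPM in neuroglia (log2 fold change 1.96, SE 0.13, adjusted p = 5.44e-13 by edgeR). ZEB2, which maintains macrophage identity, was at 462 and 413 CPM, above astrocytes and OPC but below oligodendrocytes (log2 fold change 1.10, SE 0.11, adjusted p = 5.46e-09 by edgeR). FOXN3 (1162 and 1518 CPM, log2 fold change 0.85, SE 0.11, adjusted p = 2.37e-07 by edgeR) and FOXK1 (356 and 339.6 CPM, log2 fold change 0.78, SE 0.14, adjusted p = 3.66e-05 by edgeR) were higher as well. In animal 1, FOXN3 in microglia lay below oligodendrocytes (1293 CPM). Lower were NFIB (90.5 and 113 against 702 and 619 CPM, log2 fold change -2.75, SE 0.18, adjusted p = 5.09e-13 by edgeR), SOX6 (log2 fold change -2.99, SE 0.31, adjusted p = 4.15e-09 by edgeR) and SOX13 (log2 fold change -4.25, SE 0.49, adjusted p = 4.20e-08 by edgeR). ZIC2 had no UMI in microglia, at least 4.34-fold lower than in the other subclasses with a floor of 3 UMIs over the microglia of both animals. This is a description with no test, since it passed the filter by its sums in those subclasses. SOX8 and POU3F3 were called lower (log2 fold changes -2.34 and -2.64), but not without library 1B (-0.46 and -0.93). Without the small subclasses, endothelial included, both were called, and POU3F3 was not in the first draw of at most 100 nuclei per animal and subclass (-1.81).

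In endothelial nuclei, ZIC2, SOX13 and ZEB1 were higher than in the other non-neuronal subclasses, and SOX7 and FOXF2 had their highest levels there. These nuclei were few, so levels are given with their UMIs. The markers CLDN5 and FLT1 of brain endothelium were highest there, and pericyte and fibroblast markers summed to 0 and 51.8 CPM. Neuronal markers summed to 350.4 and 778 CPM, less than in any neuronal subclass and in OPC (1117 and 1243 CPM). Astrocytes held 313 and 389 CPM of them, oligodendrocytes 314 and 434, and microglia 462 and 545. Oligodendrocyte markers summed to 453 and 17.3 CPM in endothelial nuclei. The part of these markers in the endothelial results was not tested. Calls by edgeR took in 19 of 58 tested members (32.8%), with 7 higher and 12 lower in endothelial nuclei than in the other non-neuronal subclasses, and 10.3% of all genes tested (4.62% higher and 5.68% lower). With these small sums the median of all genes was -1.11 on the log2 scale, and 0.81 with DESeq2, so fold changes here are relative to a shifted centre and the members had a median of -1.36. Of 54 factors of other families tested, 9 were higher and 5 lower. SOX7, a SOXF factor of vascular endothelium, was at 165 and 86.4 CPM (8 and 5 UMIs) and had no UMI in the other non-neuronal subclasses. This made it at least 797-fold higher with a floor of 3 UMIs over all of them. ZIC2 was at 103 and 69.1 CPM (5 and 4 UMIs, log2 fold change 5.97, SE 0.90, adjusted p = 4.06e-05 by edgeR) and FOXF2, a forkhead factor of brain vessels, at 20.6 and 104 CPM (1 and 6 UMIs). SOX7 and FOXF2 passed the low-count filter by their endothelial sums, so their values are a description with no test. TBX3 had 1 UMI in the endothelial nuclei of each animal, at 20.6 and 17.3 CPM, and was below the filter. It was named after its values were seen.

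SOX13 (412 and 380.2 CPM, log2 fold change 3.01, SE 0.39, adjusted p = 1.20e-06 by edgeR) and ZEB1 (680.2 and 1019.6 CPM, log2 fold change 1.89, SE 0.18, adjusted p = 3.60e-09 by edgeR) were higher in endothelial nuclei than in every other non-neuronal subclass of both animals. FOXP2, at 268 and 173 CPM (13 and 10 UMIs, log2 fold change 1.86, SE 0.41, adjusted p = 0.00204 by edgeR), was not called without library 1A (1.30). MEIS1 had no UMI in endothelial nuclei, at least 4.42-fold lower than in the other subclasses with a floor of 3 UMIs over both animals. MEIS2, at 124 and 34.6 CPM (6 and 2 UMIs), and ZEB2, at 103 and 69.1 CPM, were called lower (log2 fold change -3.13, SE 0.66, adjusted p = 0.00117 by edgeR for MEIS2, and log2 fold change -2.39, SE 0.26, adjusted p = 4.20e-08 by edgeR for ZEB2). The calls of SOX8, POU3F3 and FOXN2 rested on few UMIs, with 1 and 0 for SOX8, 1 and 0 for POU3F3 and 0 and 4 for FOXN2 in the animals. SOX8 was not called without library 1A (-2.88), 2A (-2.75) or 2B (-2.70), POU3F3 not without 2A (-2.52) or 2B (-2.39) or with the animal as a block (-2.84), and FOXN2 not without 1B (-1.59) or with DESeq2 (-1.71). With DESeq2, SOX8 (-2.71) and POU3F3 (-2.49) were not called either, and with at most 100 nuclei per animal and subclass SOX8 (-2.67 and -2.39) and POU3F3 (-2.63 and -1.36) were called in neither draw and FOXN2 not in the second (-1.77). POU3F3 was also not called with no low-count filter (-2.85), without nuclei called doublets (-2.54), with predicted labels (-1.03) or in the non-neuronal subclasses alone (-2.76).

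FOXK1 lay at 127 to 249 CPM over all neuronal subclasses and FOXJ3 at 72.1 to 134 CPM. Among 13 members listed as used in most cell types, 12 were tested, and edgeR called 6 of these between GABAergic and glutamatergic subclasses, where it called 39.9% of all genes, and 7 between neuroglia and neurons, where it called 62.2%. Over all 18 subclasses PBX2 lay at 0 to 23.9 CPM, PBX4 at 35.9 to 115 and SOX4 at 0 to 42.9.

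Paralogs were compared by Spearman's rho of their levels over the 18 subclasses, taken in each animal and averaged. Subclasses share library, depth and lineage, so these values are descriptions, and no p is given. Over the 78 pairs of members of the same family at 20 CPM the median rho was 0.0964, against 0.0186 over 825 pairs from different families. BCL11A and BCL11B were the most alike (0.73 and 0.70 in the animals), followed by NFIB and NFIX (0.66 and 0.66) and by SOX6 and SOX13 (0.72 and 0.58). ZEB1 and ZEB2 were the most unlike (-0.55 and -0.55). ZEB1 was highest in endothelial nuclei, where ZEB2 was at 103 and 69.1 CPM, and ZEB2 was highest in oligodendrocytes (594 and 598 CPM), where ZEB1 was low (24.3 and 30.1 CPM). SOX5 and SOX6, which are close SOXD paralogs, gave -0.37 and -0.19.

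The annotation divides 10 subclasses into 34 types with at least 30 nuclei in each animal. Of 262 member and subclass values at 20 CPM in the highest type, 15 (5.73%) differed at least 3-fold between the highest and lowest type in both animals, against 4.21% of the values of all genes. Types come from clusters of the same nuclei, so these are descriptions with no test. Pvalb held 8 of the 15, and was also the subclass with the highest share over all genes, 13.4%. NFIB, low in Pvalb as a whole, was at 998 and 822 CPM in Pvalb_5 and 24.2 to 57.5 CPM in the other 5 Pvalb types. The level in Pvalb_5 was close to that of the lowest CGE value, 826 CPM. NFIX was also highest in Pvalb_5, at 27.6 and 22.5 CPM, far below the CGE range. SOX5 (298 and 291 CPM) and BCL11B (180.1 and 152 CPM) were lowest in Pvalb_5, and ONECUT2 (51.3 and 34.6 CPM) was highest there. SOX4 was highest in Pvalb_2 (34.7 and 30.1 CPM), BCL11A in Pvalb_4 (564 and 612 CPM) and FOXP2 in Pvalb_6 (35.4 and 29.7 CPM).

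Among IT neurons, BCL11B was at 439 and 426 CPM in IT_A_4 and 29.9 to 68.2 CPM in the other 4 IT_A types. The level of BCL11B in IT_A_4 stayed below that of each deep subclass. PBX3 differed between types of 3 subclasses. In Lamp5 it was at 572 and 286 CPM in Lamp5_1 and 45.4 and 35.7 CPM in Lamp5_2, in Vip at 290.0 and 289 CPM in Vip_1 and 47.3 and 87.0 CPM in Vip_2, and in oligodendrocytes it ran from 49.1 and 49.4 CPM in OD_4 to 198 and 176 CPM in OD_3. NKX2-2 had the same extremes among oligodendrocytes, at 10.9 and 19.2 CPM in OD_4 and 58.9 and 58.9 CPM in OD_3. SOX6 was highest in L6CT_4 (54.2 and 26.3 CPM) among L6CT types.

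**Figure D5:**
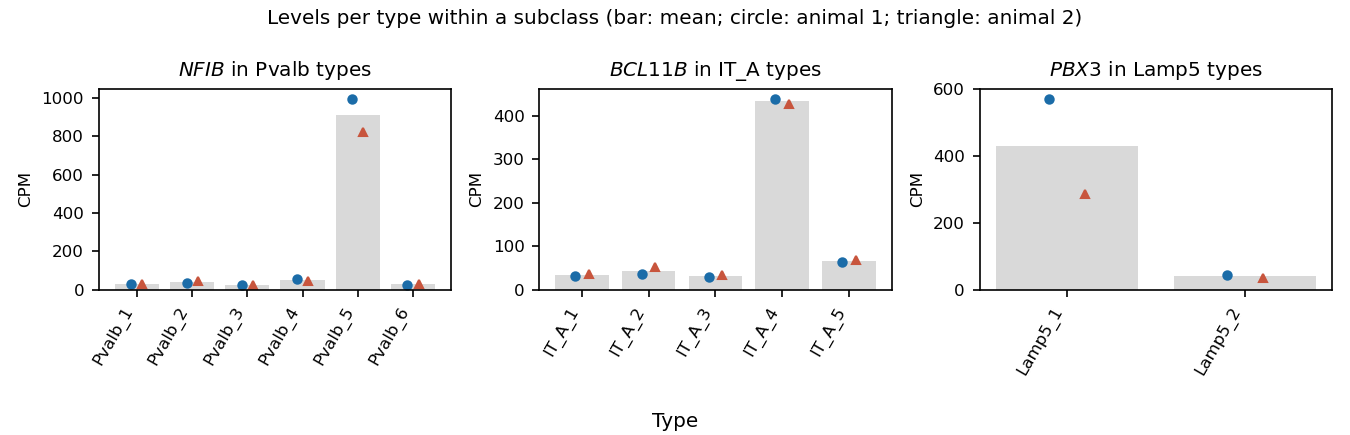
CPM of NFIB in Pvalb types, BCL11B in IT_A types and PBX3 in Lamp5 types, with the bar at the mean of the animals and a symbol for each animal. The genes were taken from those at least 3-fold apart between types. For NFIB and BCL11B 1 type stands apart from the others in both animals. Lamp5 has only 2 types, and for PBX3 in Lamp5_1 the animals differ from each other (572 and 286 CPM).

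The animals were compared with no test, since each is 1 sample. Of 479 member and subclass values at 20 CPM, 19 (3.97%) were at least 2-fold apart with every library of 1 animal above every library of the other, against 3.93% for all genes. Of these, 10 lay in endothelial nuclei, and without them 9 of 443 (2.03%) were apart, against 2.59% for all genes. In IT_D, where animal 1 had the fewer nuclei, MEIS2 was at 8.80 and 50.8 CPM (5 and 150 UMIs). In Frem1, MEIS2 was at 11.6 and 53.0 CPM (13 and 46 UMIs) and FOXP2 at 15.2 and 39.2 CPM (17 and 34 UMIs), higher in animal 2, while SOX6 was at 21.4 and 8.07 CPM (24 and 7 UMIs), higher in animal 1, as it was in Vip at 41.1 and 17.8 CPM (52 and 24 UMIs). In microglia BCL11A was at 32.1 and 78.1 CPM (17 and 49 UMIs), PBX2 at 11.3 and 23.9 CPM (6 and 15 UMIs) and FOXJ2 at 7.54 and 33.5 CPM (4 and 21 UMIs). No member met this rule in the other 13 subclasses.

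Nuclei that the annotation calls ambiguous entered no subclass. Of 30 members at 20 CPM in those of the GABAergic class, 8 lay above every labelled subclass in both animals, MEIS2, PBX3, SOX4, SOX11, DLX2, NFIX and ONECUT1 among them, against 2.94% of the genes at that level. In those of the non-neuronal class 2 of 28 members did so (TBX18 and SOX6), against 4.09%.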

How the data were processed

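Nuclei of V1 of each opossum were sorted with a DNA stain and profiled with 10x 3′ chemistry. The deposited matrices hold whole-number UMI counts per gene and nucleus, which the authors made with Cell Ranger (version 6.1.1 per the labels, 7.1.0 per the file headers) on gene models of Ensembl release 110 extended by up to 5 kb at the 3′ end. Subclass and type labels come from the deposited annotation, which also holds a doublet score as a fraction, made by the authors with Scrublet and not used here. Nuclei in clusters the annotation calls ambiguous or doublets were left out of the tests. The 798 labelled nuclei (2.44%) that the authors' doublet call marks were kept, and left out as an alternative. Library totals ran from 55625042 to 69706055 UMIs, and precision was limited by the 2 animals and, in small subclasses, by few UMIs.

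UMI counts were summed per animal and subclass, giving 36 sums, with the libraries of an animal added together. The sums were fitted in 1 model by subclass with edgeR 4.0.16 (R 4.3.3; TMM, filterByExpr, quasi-likelihood test), and p-values were adjusted by Benjamini-Hochberg over all 17227 genes tested in each of 11 comparisons, with calls at an adjusted p under 0.05. The spread is that between animals, pooled over subclasses. Members and lists were chosen with earlier results of these data known. Named genes were the members called, changed in the same direction in both animals and at 20 CPM on the higher side, at most 6 per direction, and members of role lists. Levels given as CPM were computed from the counts. Shares of nuclei with a UMI were also given after thinning each nucleus to 1000 UMIs.

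The deviations of the sums of an animal from their subclass means correlated over 9319 genes with a median of 0.17 over 153 pairs of subclasses (lowest -0.02, highest 0.68). The pairing comes from the labels, which name the animal of each library. The titles and descriptions of the samples number the libraries differently, and each file was taken to belong to the sample, and so to the age, it was deposited under. Alternatives were DESeq2 1.42.0, no low-count filter, an animal block, labels predicted for each nucleus from genes other than the members (15 neighbours in 30 components of 3000 genes, equal to the deposited label in 96.4% and 96.3% of nuclei of the animals), no nuclei called doublets, at most 100 nuclei per animal and subclass, each library left out and each animal alone. Leaving out the subclasses under 100 nuclei, and giving both of 2 random draws of at most 100 nuclei, were chosen after seeing the data. Calls of members that had fewer than 2 sums at the minimum of the filter outside their higher side were not used as tests. On simulated counts, the fit found 54 of 100 genes changed by 1 on the log2 scale and 100 of 100 changed by 2 between L5PT and L6CT (15462 genes), and 98 and 100 of 100 between GABAergic and glutamatergic subclasses (15644 genes). A few members were tested and counted with the others, but their values are not reported here. Symbols such as SOX2, SOX10, OLIG1, DLX5 and LHX8 matched no row and were not analysed here.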

Additional observations from a re-analysis of the deposited data

Results flagged for a closer look

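Nuclei that the annotation calls ambiguous belong to no subclass and entered no comparison above. Those of the GABAergic class numbered 302 and 428 in the animals, and those of the non-neuronal class 138 in each. Of the 30 members at 20 CPM in the ambiguous GABAergic nuclei, 8 were higher there in both animals than in every labelled subclass of either animal, against 2.94% of the 5986 genes at that level. MEIS2 was at 2965 and 2418 CPM, against at most 908 CPM in astrocytes of animal 2. PBX3 was at 810.0 and 932 CPM, against at most 401 CPM in Frem1 of animal 2. The SOXC genes were high as well, with SOX11 at 177 and 137 CPM, against at most 34.6 CPM in Frem1 of animal 2, and SOX4 at 81.8 and 82.4 CPM, against at most 42.9 CPM in L5NP of animal 2. DLX2 was at 52.5 and 49.8 CPM, against at most 23.0 CPM in Vip of animal 2. NFIX was at 384 and 303 CPM, against at most 274 CPM in L5PT of animal 2. ONECUT1, which stayed below 20 CPM in every labelled subclass, was at 24.7 and 39.0 CPM here (16 and 43 UMIs).

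In the ambiguous non-neuronal nuclei, 2 of 28 members at 20 CPM were above every labelled subclass, against 4.09% of the 6478 genes at that level. TBX18, a T-box factor of pericytes and vascular smooth muscle, was at 35.7 and 25.6 CPM (14 and 10 UMIs), and at most 0.249 CPM in IT_A of animal 1. SOX6 was at 2309.8 and 1888 CPM, against at most 1801 CPM in OPC of animal 1. What the ambiguous nuclei are was not tested.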

How the results depend on the processing

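Of 141 counts of members under an alternative, 129 stayed within 1.5 times the value reported. With at most 100 nuclei per animal and subclass, 44 members were tested in the first and 46 in the second of 2 random draws. In the first draw calls fell to 5 between Pvalb and Sst, 15 between IT and other glutamatergic subclasses, 5 between IT_A and IT_C, 25 between neuroglia and neurons and 15 between OPC and oligodendrocytes, and in the second to 7 between Pvalb and Sst, 16 between IT and other glutamatergic subclasses, 6 between L5PT and L6CT, 6 between IT_A and IT_C, 22 between neuroglia and neurons, 13 between OPC and oligodendrocytes and 21 between astrocytes and the oligodendrocyte lineage. This setting tests fewer genes from fewer UMIs. Which calls were lost differed between the draws, and that of PROX1 between GABAergic and glutamatergic subclasses was lost in the first only. At a 1.5-fold threshold, 45 member values (9.39%) differed between the animals, against 10.3% for all genes. Of 1442 values of named log2 fold changes under an alternative with a test, 1363 kept their direction and call, 78 lost the call and 1 reversed, that of POU3F3 between IT and other glutamatergic subclasses without the subclasses under 100 nuclei (-0.24).

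With the animal as a replicate block, edgeR called 34 members between GABAergic and glutamatergic subclasses, 17 between L5PT and L6CT and 20 between IT_A and IT_C. Of the named calls, the block removed only that of POU3F3 in endothelial nuclei. Over all genes the block called 4051 between L5PT and L6CT and 4134 between IT_A and IT_C, against 2621 and 2309 without it. With at most 100 nuclei, the counts over all genes were also over 1.5 times lower in 10 of the 11 comparisons, in both draws, from 851 (IT_A against IT_C) to 5342 (neuroglia against neurons). With 2 animals, few nuclei and few UMIs limit the endothelial, L6b and IT_D values, and differences of 1 on the log2 scale could be missed between single subclasses.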
